A study of Mus musculus with 8 samples.

Results

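The miR-181 family was followed as every entry of the deposited tables whose name starts with mir-181. There were 10 such entries of 764, which cover 6 hairpin names of 626: mir-181a-1, mir-181a-2, mir-181b-1, mir-181b-2, mir-181c and mir-181d. All 6 are listed for mouse, while rat entries are listed for mir-181b-1 and mir-181b-2 and human entries for mir-181b-2 and mir-181c. Small RNA was sequenced from whole hearts of wild-type C57Bl6/J mice at 4 to 6 weeks, called adult in the labels, in 4 females and 4 males with neither treatment nor transgene named. Each library came from 1 separate animal and held 29900500 to 38894987 counts on miRNA hairpins.

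A miRNA is cut from a hairpin and guides the Argonaute protein to messenger RNAs that pair with its seed, bases 2 to 8 from the 5′ end. Either arm of the hairpin can yield a mature miRNA, and in the miR-181 family the 5′ arm is the main product. In mice, miR-181a is known for setting the sensitivity of developing T cells to antigen, miR-181b for damping NF-κB signalling in endothelial cells, and miR-181 as a whole for a part in myoblast differentiation. In rat heart muscle cells, miR-181c is known to enter mitochondria and bind the transcript of a respiratory chain subunit.

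The 5′ arms are shown first because they carry most of the mature counts of the family, with the seed in capitals (RefSeq, GRCm38.p6, 5′ to 3′).
miR-181a-5p: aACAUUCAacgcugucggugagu
miR-181b-5p: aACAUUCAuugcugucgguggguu
miR-181c-5p: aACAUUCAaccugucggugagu
miR-181d-5p: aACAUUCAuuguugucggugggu
The seed ACAUUCA is shared by these 4 and by 0 other mature sequences of the RefSeq mouse table. Counted from 1 at the 5′ end, miR-181b-5p differs from miR-181a-5p by A9U, C10U and A21G and is longer by 1 base, and miR-181d-5p differs from miR-181b-5p by C12U and is shorter by 1 base. Removing the G at position 11 of miR-181a-5p gives miR-181c-5p.

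The 3′ arms matter because they tell the copies of miR-181a and miR-181b apart, which the 5′ arms cannot.
miR-181a-1-3p: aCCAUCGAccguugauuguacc
miR-181a-2-3p: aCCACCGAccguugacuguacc
miR-181c-3p: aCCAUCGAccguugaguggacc
miR-181b-1-3p: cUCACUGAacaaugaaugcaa
miR-181b-2-3p: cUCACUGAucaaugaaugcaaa
miR-181d-3p: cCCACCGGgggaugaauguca
miR-181a-2-3p differs from miR-181a-1-3p by U5C and U16C, and the U5C change lies in the seed. The seed CCAUCGA is shared by miR-181a-1-3p and miR-181c-3p, and UCACUGA by both miR-181b 3′ arms.

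The hairpins form 3 pairs in the genome. Mir181a-1 (chr1:137966455-137966541) and Mir181b-1 (chr1:137966639-137966718) lie 97 bases apart on the plus strand of chromosome 1. Both are in an intron of the noncoding transcript Gm4258 and both overlap an exon of the lincRNA A430106G13Rik. Mir181a-2 (chr2:38852735-38852810) and Mir181b-2 (chr2:38853830-38853918) lie 1019 bases apart on the plus strand of chromosome 2, opposite an intron of Nr6a1, the gene of an orphan nuclear receptor. Mir181c (chr8:84178873-84178961) and Mir181d (chr8:84178716-84178787) lie 85 bases apart on the minus strand of chromosome 8, in an intron of Nanos3, a germ cell gene. Positions are GRCm38, the assembly of mm10.

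**Figure D1:**
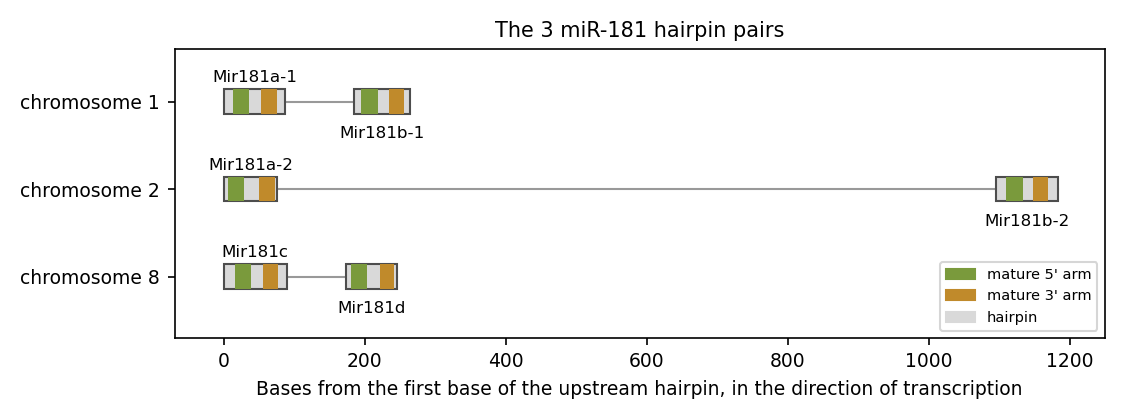
Map of the 3 hairpin pairs, with the distance in bases from the start of the upstream hairpin along the x axis and the chromosomes along the y axis. Grey boxes are hairpins and coloured boxes the mature arms, and the pair on chromosome 2 is the widest, with 1019 bases between its hairpins.

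The hairpins of the copied pairs are shown with both mature arms in capitals, since the reads of their 3′ arms differed in the tables.
Mir181a-1: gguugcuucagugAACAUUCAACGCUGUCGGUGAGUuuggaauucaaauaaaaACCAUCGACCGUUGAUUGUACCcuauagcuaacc
Mir181a-2: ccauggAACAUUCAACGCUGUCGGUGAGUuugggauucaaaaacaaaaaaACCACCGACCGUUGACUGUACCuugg
Mir181b-1: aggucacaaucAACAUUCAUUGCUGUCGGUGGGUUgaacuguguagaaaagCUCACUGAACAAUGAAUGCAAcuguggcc
Mir181b-2: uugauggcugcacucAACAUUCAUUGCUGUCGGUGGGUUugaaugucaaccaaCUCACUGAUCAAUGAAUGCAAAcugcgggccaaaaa
Downstream of the 5′ arm, counted from its base 1, the copies of miR-181a first differ at A28G (Mir181a-1 to Mir181a-2) and those of miR-181b at G25U (Mir181b-1 to Mir181b-2), the base just after the arm.

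Reads that fit 2 copies were listed in equal parts. The mir-181a-1 and mir-181a-2 entries held 4298 exact 5′ reads each in female replicate 1, and the mir-181b entries of mouse held 229 and 230. Over the 16 such pairs of miR-181a and miR-181b counts the difference was 0 in 8 and 1 in 8, and over 212 pairs of all mouse hairpins with 2 copies it was 0 in 102, 1 in 110 and larger in 0. Counting each shared read at both copies would leave a difference of 0 in every pair, whereas dividing an odd number leaves 1. Sums over copies were therefore taken to hold each shared read once, and miR-181a-5p and miR-181b-5p are such sums. The check covers exact reads of mouse copies only. Whether a read of miR-181b-5p was listed under both mouse and rat was not tested. For miR-181b-5p the rat entries held 63.6 to 69.9% of the counts of a heart.

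Levels are given as CPM, counts scaled to a common number of mature counts a library, with TMM factors, which correct for the makeup of a library. A read of a miRNA covers the whole molecule, so no division by length was made. In each of the 8 hearts the order was the same, from miR-181a-5p through miR-181b-5p, miR-181d-5p, miR-181a-2-3p and miR-181c-5p to miR-181c-3p. By mean level these stood at ranks 45, 77, 94, 137, 205 and 285 of 562 miRNAs tested. By mature counts, the place of miR-181b-5p rests on its rat entries, and with mouse entries alone it stood below miR-181d-5p in every heart. Over the 8 hearts mouse mir-181b-1 and mir-181b-2 held 19998 and 25106 5′ counts, and mir-181d held 83050. These leave out reads listed as other, in neither mature arm's count. Such reads numbered 29734 and 29917 at mouse mir-181b-1 and mir-181b-2, and 14428 at mir-181d. Whether the order would change with them was not tested.

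miR-181a-5p, the member best known from lymphocytes, had 1458, 1894, 2495 and 1786 CPM in female replicates 1 to 4 and 1785, 1903, 1814 and 1824 CPM in male replicates 1 to 4. The male hearts lay close together, while the lowest and the highest value of all 8 were female. It made up 61.8 to 69.7% of the family's mature counts in a heart. Its count was 3.11 to 4.12 times that of miR-181b-5p, rat entries included, in the same heart, with a median of 3.73.

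miR-181b-5p, the member studied in vascular endothelium, had 469, 490.3, 605 and 491 CPM in the females and 489.5, 498, 473 and 529 CPM in the males. Female replicate 3 was the highest and the other 7 overlapped. The neighbouring level in the order, that of miR-181d-5p, was 299.6, 278, 359 and 306 CPM in the females and 315, 308, 322 and 325 CPM in the males. Female replicate 3 was the highest for this arm too, and female replicate 2 the lowest. The count of miR-181b-5p, rat entries included, was 1.47 to 1.76 times that of miR-181d-5p.

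The only copy-specific 3′ arm of miR-181a with counts, miR-181a-2-3p, had 101, 71.4, 67.6 and 119 CPM in the females and 124, 93.7, 108 and 94.9 CPM in the males. Female replicates 2 and 3 were the lowest. miR-181c-5p had 18.6, 38.9, 45.2 and 23.7 CPM in the females and 19.7, 26.6, 29.4 and 19.3 CPM in the males, so that the same female replicates 2 and 3 were the highest. miR-181c-3p, the other arm of that hairpin, had 12.3, 10.9, 10.2 and 8.36 CPM in the females and 8.53, 10.3, 9.44 and 8.08 CPM in the males, with the sexes overlapping. Of these counts 0 to 10.9% a heart stood on the human mir-181c entry.

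**Figure D2:**
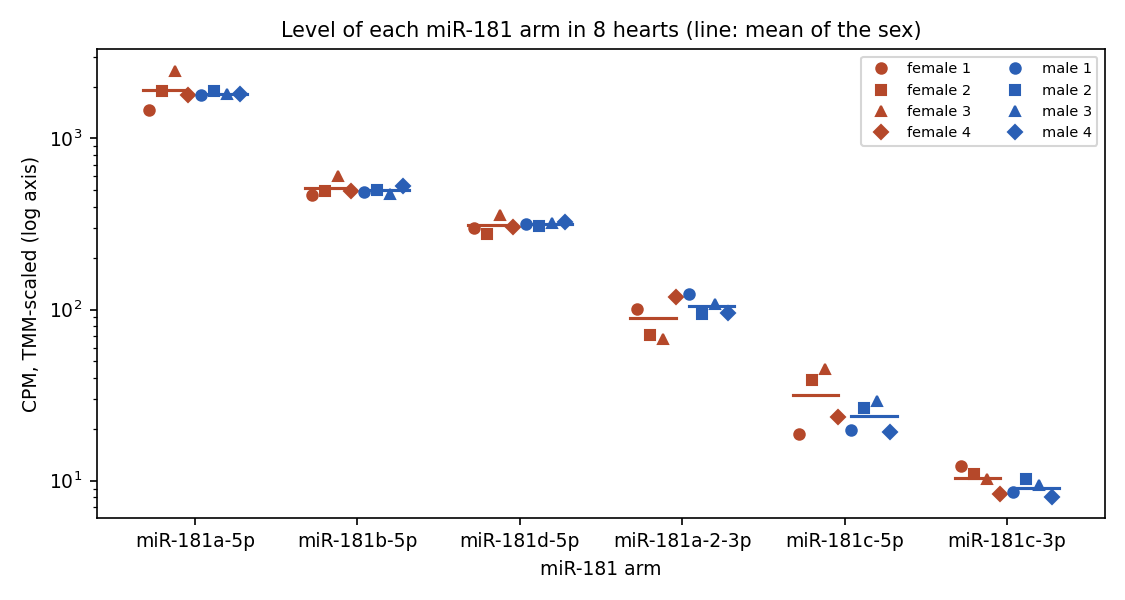
TMM-scaled CPM (log axis) of the 6 miR-181 arms on the x axis in each of 8 hearts, with a point per heart and a line at the mean of each sex. The arms, with the rat entries of miR-181b-5p included, keep the same order in every heart. They run from 1458 to 2495 CPM for miR-181a-5p down to 8.08 to 12.3 CPM for miR-181c-3p.

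As a share of mature counts, the family made up 0.318% ± 0.130 in females against 0.264% ± 0.0343 in males (SD, n = 4). Female replicate 3 stood apart with 0.505% (95% Wilson interval 0.503 to 0.508, counting error only, and reads without molecular identifiers are not independent molecules), against 0.208 to 0.296% in the other 7 hearts. This library also had the largest TMM factor, 1.41 against 0.845 to 1.06, and its part in the results was not tested beyond leaving it out. In whole-heart RNA, fewer cells of a type and less RNA per cell cannot be told apart.

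Which cluster the reads came from could be read from the copy-specific reads alone. For the chromosome 2 pair, the 3′ arm of mir-181a-2 held 2601, 2846, 2890 and 4017 counts in the females and 3551, 2891, 3659 and 2677 in the males, all of them unique to that entry. For the chromosome 1 pair, the 3′ arm of mir-181a-1 was listed at 0 in all 8 hearts. Whether the reference behind the tables holds a mature 3′ sequence for mir-181a-1 is not known from the labels or the tables, so the listed 0 sets no limit on miR-181a-1-3p. Exact reads listed as other, in neither mature arm's count, were slightly more numerous at mir-181a-1. They numbered 44051 over the 8 hearts against 43373 at mir-181a-2. The difference was 41, 121, 144 and 52 counts in female hearts and 75, 123, 44 and 78 counts in male hearts. The same difference between mir-181b-1 and mir-181b-2 ran from -1 to 16, with a median of 0.5. The place of these reads on the hairpin is not given. Near-equal counts at both copies are how shared reads were listed, and the copies share few bases beside the 5′ arm. Those of miR-181a share 4 bases after the arm and 1 before it, and those of miR-181b 0 and 2. Reads listed as other are thus not shown to lie outside the arms.

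The 3′ arms of the miR-181b hairpins had few listed reads, and a listed 0 can hide small counts. Counts were listed in 1 heart only, female replicate 2, with 13 for mir-181b-1 and 11 for mir-181b-2 of mouse and 30 for human mir-181b-2. Of the 5′ reads, 356 to 1052 a heart were unique to mir-181b-2 of mouse, or 14.997 to 20.2% of its 5′ counts, and 0 to 15 were unique to mir-181b-1. The base after the arm differs by G25U between these hairpins, so a 5′ read with 1 more U at its end fits mir-181b-2 alone. Whether that U was copied from the hairpin or added later cannot be told apart from counts. The third pair, on chromosome 8, could be read from its 5′ arms, since all counts of miR-181c-5p and at least 7620 of the miR-181d-5p counts of each heart were unique. The 3′ arm of mir-181d was listed at 0 in all 8 hearts, which, as for mir-181a-1, sets no limit.

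Within the chromosome 8 pair, miR-181d-5p outnumbered miR-181c-5p in 8 of 8 hearts. The count of miR-181d-5p was 16.1, 7.15, 7.95 and 12.9 times that of miR-181c-5p in the females and 16.004, 11.6, 10.95 and 16.9 times in the males. The smallest ratios were those of female replicates 2 and 3. On the log2 scale (pseudocount 0.5) the ratio of miR-181c-5p to miR-181d-5p was -3.57 ± 0.467 (SD, n = 8; two-sided exact sign-flip permutation test over 8 hearts, p = 0.00781, the smallest the design can give). It was -3.38 ± 0.557 in the females and -3.76 ± 0.318 in the males (SD, n = 4). The difference of 0.38, female minus male, was within the spread between hearts (two-sided exact permutation test over 70 arrangements, p = 0.343, smallest possible 0.0286).

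The ratio of miR-181a-5p to miR-181b-5p was compared between the sexes in the same way. Its log2 value was 1.87 ± 0.174 in the females and 1.88 ± 0.0717 in the males (SD, n = 4), a difference of -0.0081 (two-sided exact permutation test, p = 0.971). With exact reads alone the difference turned to 0.36 (exact permutation p = 0.314). Adjusted over the 3 tests of ratios, the exact permutation p was 0.0234 for the order of miR-181c-5p and miR-181d-5p within hearts, 0.514 for their ratio by sex and 0.971 for that of miR-181a-5p to miR-181b-5p.

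**Figure D3:**
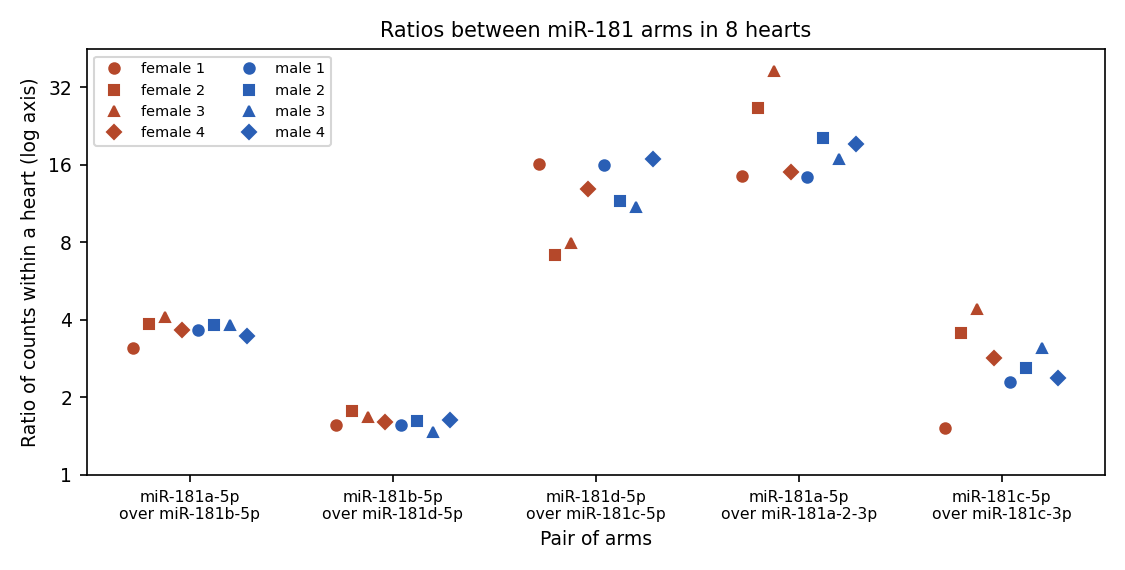
Ratio of counts within each heart (log axis) for 5 pairs of miR-181 arms on the x axis, with a point per heart coloured by sex. The ratio of miR-181a-5p to miR-181b-5p (rat entries included) stays between 3.11 and 4.12, whereas that of miR-181a-5p to miR-181a-2-3p runs from 14.4 to 36.9.

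Arm use was compared between the sexes as the log2 ratio of 5′ to 3′ counts of a hairpin. For mir-181a-2, with its part of the shared 5′ reads, the ratio was 2.85, 3.73, 4.21 and 2.91 in the females and 2.85, 3.34, 3.07 and 3.27 in the males. Female replicates 2 and 3 were again the highest, and the others overlapped. The difference was 0.29 (SE 0.34, limma adjusted p = 0.784), and 0.03 (SE 0.28) without female replicate 3. As the 5′ reads of mir-181a-2 cannot be told from those of mir-181a-1, this ratio is not that of 1 hairpin alone.

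For mir-181c, whose arms are both specific, the log2 ratio was 0.60, 1.84, 2.14 and 1.503 in the females and 1.20, 1.37, 1.63 and 1.25 in the males. Female replicate 1 was the lowest and female replicate 3 the highest. The difference was 0.15 (SE 0.34, limma adjusted p = 0.909). It became 0.46 (SE 0.25) without female replicate 1 and -0.052 (SE 0.32) without female replicate 3. Of 124 hairpins tested 0 passed (0% of all), with 6 at an unadjusted p under 0.05, and neither miR-181 hairpin was among them.

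Whether the level of the family differed by sex was tested for 6 arms within the fit across all miRNAs. None of the 6 passed edgeR's quasi-likelihood test after Benjamini-Hochberg adjustment, where 0% of 562 miRNAs passed, and none had an unadjusted p under 0.05, where 28 of 562 had. DESeq2 called 0.534% of 562 and limma-voom 0, with no miR-181 arm called by either. In none of the 6 did the female and male hearts fall apart without overlap, which 3.02% of all miRNAs did. The median log2 fold change, female minus male, was 0.05 over the 6 arms and -0.06 over all 562.

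miR-181a-5p had 1908 ± 433 CPM in the females and 1832 ± 50.4 CPM in the males (SD, n = 4), and the log2 fold change was 0.06 (SE 0.19, adjusted p by edgeR 0.969). Without female replicate 3 the sign turned, to -0.044 (SE 0.14), and with exact reads alone the value was 0.46 (SE 0.31). Exact reads made up 33.6% of its counts in female replicate 3 and 19.5 to 27.5% in the other hearts. miR-181b-5p had 514 ± 61.8 and 497 ± 23.5 CPM (SD, n = 4), and its log2 fold change was 0.05 (SE 0.16).

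miR-181c-5p showed the widest difference of the 6, with 31.6 ± 12.5 CPM in the females and 23.7 ± 5.05 CPM in the males (SD, n = 4) and 0.41 (SE 0.29, adjusted p by edgeR 0.801) as log2 fold change. Female replicates 2 and 3 were above all male hearts, female replicate 4 lay among them and female replicate 1 was the lowest of all 8. The value was 0.25 (SE 0.30) without female replicate 3 and 0.72 (SE 0.31) without female replicate 1. miR-181c-3p followed with 0.20 (SE 0.19), from 10.4 ± 1.62 and 9.08 ± 0.976 CPM (SD, n = 4).

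Lower means in female hearts were found for miR-181a-2-3p, with 89.8 ± 24.6 against 105 ± 14.2 CPM (SD, n = 4) and -0.23 (SE 0.22, adjusted p by edgeR 0.823) as log2 fold change, and -0.073 (SE 0.19) without female replicate 3. miR-181d-5p was the closest to 0, with 311 ± 34.4 and 317 ± 7.501 CPM (SD, n = 4) and -0.031 (SE 0.16) as log2 fold change. Its sign turned under several alternatives, among them RLE factors, upper quartile factors and library size alone. The female spread was larger than the male one in all 6 arms.

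**Figure D4:**
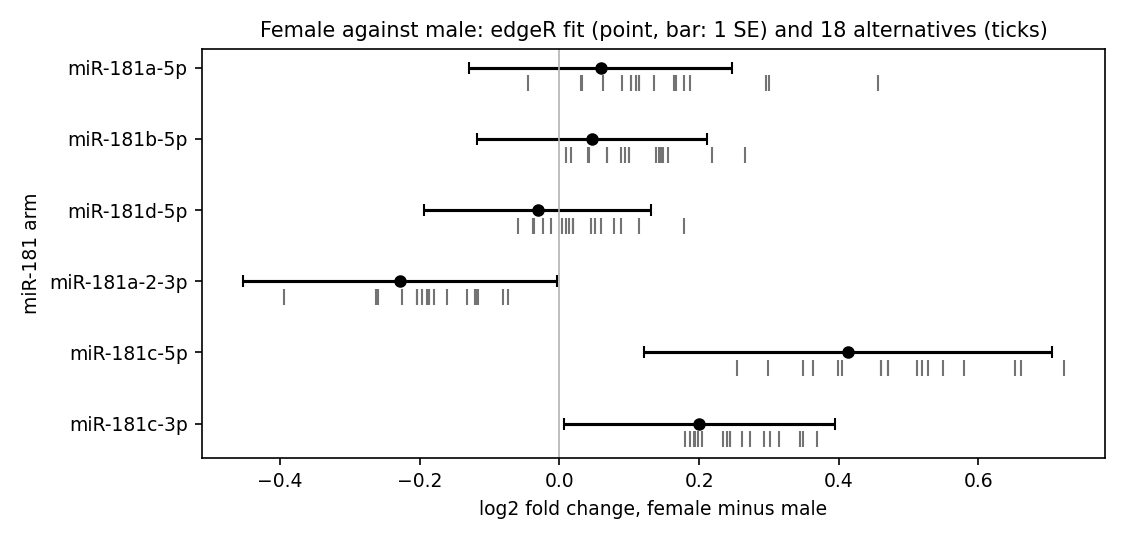
The log2 fold change, female minus male, on the x axis for 6 miR-181 arms on the y axis, with a point and a bar of 1 SE from edgeR and a tick for each of 18 alternatives. Values run from -0.23 for miR-181a-2-3p to 0.41 for miR-181c-5p, and miR-181d-5p has ticks on both sides of 0.

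The covariation of the arms over the 8 hearts was described for 15 pairs of log2 CPM values, which share libraries and scaling factors. Hearts of 1 sex are too few for a correlation of their own. miR-181a-5p and miR-181b-5p, the products of the copied pairs, had Pearson's r = 0.87 (exact permutation p = 0.0114, adjusted over 15 pairs 0.0856) and Spearman's rho = 0.79 (exact permutation p = 0.0279, adjusted 0.184). Without the hearts farthest from the median of miR-181a-5p, female replicates 1 and 3, r was 0.12, so the relation rests on those 2 hearts.

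The 1 pair that passed was miR-181a-5p with miR-181c-5p, whose hairpins lie on different chromosomes, with r = 0.79 (exact permutation p = 0.00216, adjusted 0.0324) and rho = 0.76 (exact permutation p = 0.0368, adjusted 0.184). Without female replicates 1 and 3 its r was 0.65 (exact permutation p = 0.174). By Spearman's rho 0 pairs passed after adjustment, with 3 at an unadjusted p under 0.05. The count of pairs passed by r was 0 without female replicate 2, 3 or 4 or male replicate 1 and 2 without male replicate 4.

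miR-181c-5p and miR-181d-5p, from hairpins 85 bases apart, had r = 0.20 (exact permutation p = 0.633, adjusted 0.791), rho = 0.19 (exact permutation p = 0.665) and r = 0.17 without female replicates 2 and 3. miR-181a-2-3p had a negative r with each 5′ arm, -0.63 with miR-181a-5p (exact permutation p = 0.101, adjusted 0.217), rho = -0.83 (exact permutation p = 0.0154, adjusted 0.184) and r = -0.85 without female replicates 1 and 3. With miR-181c-5p its r was -0.79 (exact permutation p = 0.0217, adjusted 0.108) and rho -0.57 (exact permutation p = 0.151), and r was -0.052 without female replicates 2 and 3.

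These values depended on the scaling. With library size alone, 8 of 15 pairs passed, and the 4 arms of the 5′ side had r from 0.87 to 0.98 with one another. The r of miR-181c-5p with miR-181d-5p was then 0.87 and that of miR-181a-5p with miR-181a-2-3p 0.04. Without female replicate 3, under TMM, the r of miR-181a-5p with miR-181b-5p was 0.52 and that of miR-181c-5p with miR-181d-5p -0.58.

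**Figure D5:**
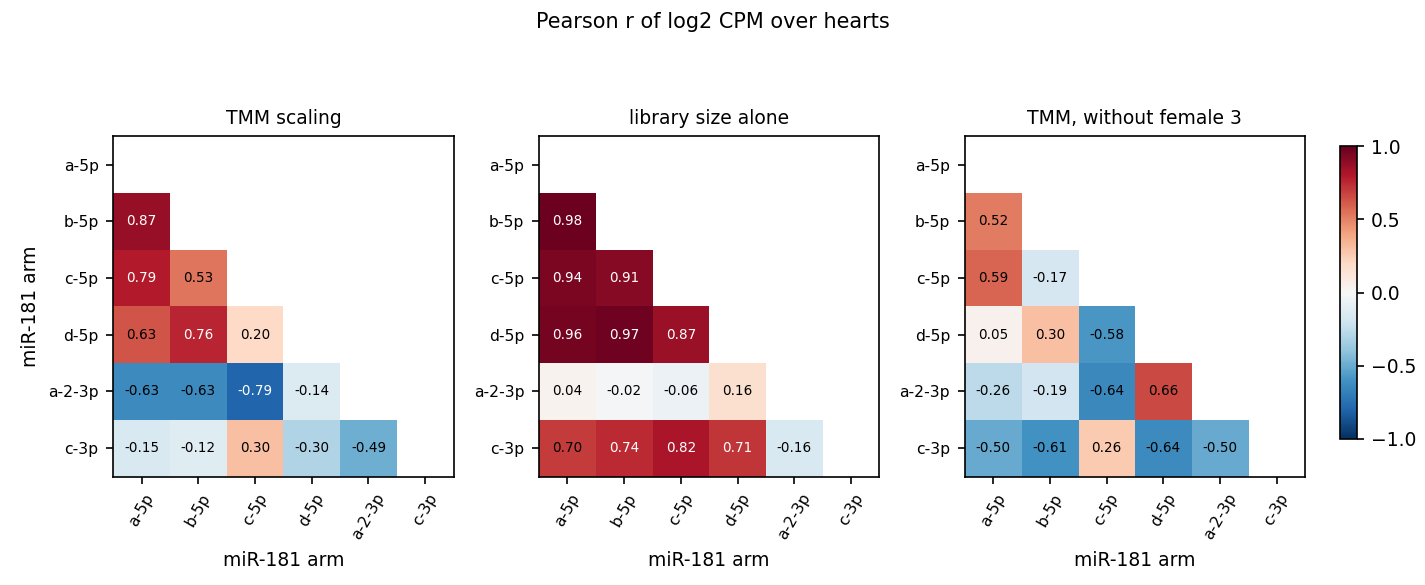
Pearson's r of log2 CPM over hearts for each pair of 6 miR-181 arms (both axes), under TMM scaling, with library size alone and under TMM without female replicate 3, with red for positive and blue for negative r. The 5′ arms run from 0.20 to 0.87 with one another under TMM and from 0.87 to 0.98 with library size alone.

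Among 131 other miRNAs with a mean of at least 100 CPM, the pattern most like that of miR-181a-5p over the 8 hearts was that of miR-133a-5p, from a muscle hairpin, with Pearson's r = 0.89. It was followed by miR-22-3p, a regulator of cardiac growth, at 0.84, miR-490-3p at 0.71, miR-140-5p at 0.66 and miR-30e-5p at 0.64. Over all 131 the median r was -0.30. miR-133a-5p also led for miR-181b-5p, with r = 0.93, ahead of miR-378d-2-5p at 0.79, miR-490-3p at 0.77, miR-378b-3p at 0.75 and miR-378a-5p at 0.72. Without female replicate 3 the order changed. With miR-181a-5p, r was then 0.81 for miR-30e-5p, 0.63 for miR-133a-5p, 0.51 for miR-22-3p, 0.37 for miR-140-5p and 0.12 for miR-490-3p. With miR-181b-5p it was 0.69 for miR-133a-5p, 0.56 for miR-378d-2-5p, 0.14 for miR-490-3p, -0.14 for miR-378b-3p and -0.17 for miR-378a-5p.

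Cell type miRNAs were set beside the family, because leukocytes and endothelium also express it. Of 8 leukocyte miRNAs 0 passed the edgeR test and 2 had an unadjusted p under 0.05, which 28 of all 562 had, with a median log2 fold change of -0.42, and their summed level ran from 1181 to 2162 CPM in the females and from 1272 to 3450 CPM in the males. Of 3 endothelial miRNAs tested 0 passed and 0 had an unadjusted p under 0.05, with a median of -0.14 and a summed level of 54196 to 88565 CPM in the females and 73545 to 125368 CPM in the males. Of 5 heart muscle miRNAs tested, from a list with the heart-specific miR-208a-3p, 0 passed and 1 had an unadjusted p under 0.05. Their median was 0.15, with 5 of 5 higher in the females, against 239 of all 562 miRNAs. In the other lists 4 of 4 smooth muscle, 2 of 8 leukocyte, 0 of 3 endothelial and 0 of 3 erythroid miRNAs were higher. The heart muscle list summed to 5398 to 9364 CPM in the females and 4095 to 7159 CPM in the males. Its miR-133a-3p was not tested. Outside the list, miR-1-1-3p and miR-1-3p had means of 23643 and 11.8 CPM and log2 fold changes of -0.17 and -0.012. Of 3 erythroid miRNAs 0 passed and 2 had an unadjusted p under 0.05, with a median of -2.19 and a summed level of 54.6 to 213 CPM in females against 154 to 1176 CPM in males. Of 4 smooth muscle miRNAs 0 passed and 0 had an unadjusted p under 0.05, with a median of 0.11 and a summed level of 46420 to 68367 CPM in females against 48012 to 61584 CPM in males. The ranges of the sexes overlapped in each list, and the part of these cells in the miR-181 levels was not tested.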

How the data were processed

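Read counts per miRNA hairpin entry were deposited by the authors, 1 table per heart, split per the file headers into mature 5′ arm, mature 3′ arm and other reads. The submitters' processing notes name STAR and mm10. Which tool counted the reads, and how they were trimmed or filtered, is not given in the sources used here. No count from 1 to 9 occurs in the columns of reads unique to 1 entry, while 1382 from 10 to 19 do. A listed 0 may therefore stand for small counts left out. How such a cutoff was applied is not given, so the total it can hide on an arm is not known. Entries of 1 name and arm were summed over mouse, human and rat, and numbered copies were summed where under 50% of mouse reads were unique to 1 copy, giving 683 miRNAs. The members, lists and this unit were chosen with earlier results of these data known. The rule for named miRNAs was every mir-181 entry and the 5 miRNAs most like miR-181a-5p and miR-181b-5p.

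Sexes were compared with edgeR 4.0.16 in R 4.3.3 (quasi-likelihood test, TMM, filterByExpr with a minimum count of 10 and total of 15, sex alone, Benjamini-Hochberg over 562). SE is the fold change over the square root of F. Arm ratios (pseudocount 0.5, mean of at least 20 counts on each arm) were tested with limma 3.58.1 over 124 hairpins, with its own adjustment. log2 CPM used a prior count of 2. Single ratios and correlations had exact permutation tests (scipy 1.17.1). DESeq2 1.42.0 was an alternative. The fits were tested on simulated data. No 2 libraries were copies, since chi-square over its degrees of freedom was at least 616.7 in 28 pairs. Each library is a separate animal, so p-values measure the spread between hearts. RefSeq gave a hairpin sequence and positions by symbol.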

Additional observations from a re-analysis of the deposited data

Results flagged for a closer look

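The level of miR-181b-5p in female replicate 3, 605 CPM, lay far from the other female hearts, at 469 to 491 CPM, by Dixon's criterion for 4 samples. Of 20 groups of 4 hearts examined (6 arms, 2 ratios and 2 arm ratios in each sex) 1 was set apart, and chance sets apart 1 in 20. Reads on the 3′ arms of the miR-181b hairpins, 54 over the mouse and human entries, were listed in female replicate 2 and at 0 in the other 7 hearts. That library held the most counts, 38894987. No unique count from 1 to 9 is listed for any entry, so the listed 0 need not mean absence. Among exact reads listed as other, mir-181a-1 held 678 more than mir-181a-2 over the 8 hearts, with a surplus in each heart. The surplus of mir-181b-1 over mir-181b-2 was 18.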

How the results depend on the processing

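The call that miR-181d-5p outnumbers miR-181c-5p held in all 11 alternatives tried, with log2 ratios from -3.68 to -3.00. The sex comparison passed for none of the 6 arms, 2 arm ratios and 2 ratios of miR-181 arms under any alternative tried. By sex, 1 miRNA passed of 683 with no filter on low counts, of 284 with at least 10 CPM in 4 libraries, of 457 with mouse entries only, of 408 with exact matches only and of 562 with the replicate block. DESeq2 called 3 of 562, and leaving out 1 heart gave 0 to 2 of 573 to 580, with 2 without female replicate 3. Arm ratios passed for 1 hairpin with a mean of at least 100 counts on each arm, and for 0 to 1 when 1 heart was left out. The pairs that covary numbered 4 with mouse entries only, 2 with exact matches only, with RLE factors or with deviations from the mean of each sex, 8 with library size alone, and 0 to 2 without 1 heart. The log2 fold change of miR-181d-5p turned to 0.019 with RLE factors and with DESeq2, 0.078 with upper quartile factors, 0.18 with library size alone, 0.060 with no filter, 0.0095 with at least 10 CPM and 0.0037 with mouse entries, and ran from -0.060 to 0.11 without 1 heart. That of miR-181a-5p ran from -0.044 to 0.30, the arm ratio of mir-181c from -0.052 to 0.46, and the difference of the miR-181a-5p to miR-181b-5p ratio from -0.065 to 0.071 without 1 heart, with 0.36 for exact matches. The median of all miRNAs moved from -0.06 under TMM to 0.13 with library size alone. The causes were not tested.

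Same-numbered hearts were not taken as pairs, because the labels name no shared source and not every pair's deviations correlated above 0.1. Their r was 0.33, 0.27 and 0.20 for replicates 1 to 3, above the highest r with another number (0.062, 0.16 and -0.054), and -0.0045 for replicate 4, below it (0.11). This is a hint of pairing in 3 of 4 from the data, not from the design. With the replicate block 1 miRNA passed, and miR-181c-5p stood at 0.35 (SE 0.21, adjusted p by edgeR 0.637). The planned ratios of miR-181a-1-3p to miR-181a-2-3p and of miR-181b-1-3p to miR-181b-2-3p were not run, because the 3′ arm of mir-181a-1 is listed at 0 in every heart and those of the miR-181b hairpins in 7 of 8. miR-181c-3p had 218 to 403 mouse counts a heart, the fewest of the 6 arms tested.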

Other observations

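Exact matches to the mature sequence differed between the arms of the family. They made up 49.1 to 57.9% of counts a heart for miR-181c-5p, 30.2 to 41.2% for miR-181d-5p, 30.9 to 36.4% for miR-181a-2-3p, 19.1 to 31.6% for miR-181b-5p and 17.8 to 27.0% for miR-181c-3p. The miR-181b-5p share pools mouse and rat entries, and that of miR-181c-3p pools mouse and human entries. Over the 8 hearts mir-181b-1 held 2995 exact of 19998 5′ counts for mouse and 14611 of 44642 for rat. At mouse mir-181b-1 and mir-181b-2, 47.4 to 65.8% of counts were listed as other, in neither mature arm, with no place given. The share was 15.2 to 21.4% for both mir-181a entries, 12.2 to 17.0% for mir-181d and 10.4 to 12.8% for mir-181c. Mouse mir-181b-1 and mir-181b-2 held 29734 and 29917 such reads over the 8 hearts, near equal as shared reads are listed. The rat entries of mir-181b held 0 such reads, while they held most of the miR-181b-5p counts.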
